A study of Mus musculus with 6 samples.

Results

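The nuclear genes for the subunits of the oxidative phosphorylation complexes were examined in single-cell RNA sequencing of mouse melanoma. They were taken by gene symbol: Nduf genes of the a, b, c, s, and v series, Sdha to Sdhd, and all genes whose symbol starts with Uqcr, Cox4 to Cox8, or Atp5, without pseudogenes and without Ndufaf assembly factors. This gave 84 of the 25215 genes listed, with Atp5o present under 2 gene identifiers. By complex they were 35 genes of complex I, 4 of complex II, 8 of complex III, 20 of complex IV, and 17 of complex V, where Ndufa4 and its paralog Ndufa4l2 were counted with complex IV.

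C57BL/6 mice were injected subcutaneously with 50000 cells of B16, a transplantable melanoma line, or of R499, a line (Res499) that comes from a B16 tumor relapsed after radiation with anti-CTLA4. The 3 conditions were untreated B16, B16 in mice given anti-PD1 antibody (B16PD1), 200 µg at each of days 5, 8, and 11, and untreated R499, with 2 tumors each, all taken at day 15. Cells without CD45 were sorted, placed on the ICELL8 platform, and made into full-length Smart-seq libraries. R499 is 1 derived line, each tumor sample is 1 mouse injected on both flanks, and the sort removes most immune cells. The deposited unit is TPM, a relative transcript abundance that is corrected for transcript length and sums to the same total in each cell.

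Of 602 cells, 507 had more than 1000 genes detected and less than 10% of TPM from mitochondrially encoded (mt-) genes, and between 75 and 91 cells per tumor were retained. TPM keep no read depth, so depth is unknown. Tumors had medians of 3141 to 3839 genes detected in a retained cell. All 9 melanocyte markers were detected, in 51.1% to 100% of cells. Of 16 immune markers, 5 were at 0, and Fcer1g had the widest detection, 5.52% of cells. The summed immune level was 207 TPM in B16007 and 233 TPM in B16PD1002, and between 7.31 and 39.3 TPM in the other 4 tumors. Fibroblast markers summed to at most 3.01 TPM, with 2 of 7 at 0, endothelial markers to at most 0.260 TPM, with 3 of 5 at 0, and all 4 keratinocyte markers were at 0. The first number after the tumor number in the cell names took 18 values in each condition, in 2 unbroken stretches. Of these values, 0 were shared with another condition, so that this number and the condition cannot be told apart. The sample labels do not say what this number stands for.

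Oxidative phosphorylation passes electrons from NADH through complex I, or from succinate through complex II, to complex III and then complex IV, which reduces oxygen. Complexes I, III, and IV pump protons out of the mitochondrial matrix, and complex V, the ATP synthase, uses their return to make ATP. Complex II is built from nuclear genes alone, while the others combine nuclear subunits with subunits encoded in mitochondrial DNA, and several nuclear subunits of complexes IV and V exist as paralogs with different use among tissues.

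The members were among the abundant transcripts of these cells. Of the 84, 78 were detected in more than 5 cells and were tested, 64 were detected in at least 80% of cells, and 22 in at least 95%. The tested members had a median level of 684 TPM, compared with 11.2 TPM over all 11264 genes tested, and a median share of cells of 90.2%, compared with 23.7%. Together they took 6.55% to 8.19% of the TPM of a tumor's average cell. The 6 members that were not tested were Cox8b, the second Atp5o identifier, and Cox4i2, Cox6b2, Cox7b2, and Cox8c, of which the last 4 were listed at 0 in every retained cell. For a gene in 0 of 507 cells, the share of cells is limited to 0.592%, for counting error only.

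Members had short transcripts, with a median annotated length of 682 bases compared with 2158 over the tested genes with a length. Across the 78 tested members the Spearman rho of transcript length and mean TPM was -0.44, and across all tested genes it was -0.45; genes are not independent replicates and these values are a description.

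**Figure D1:**
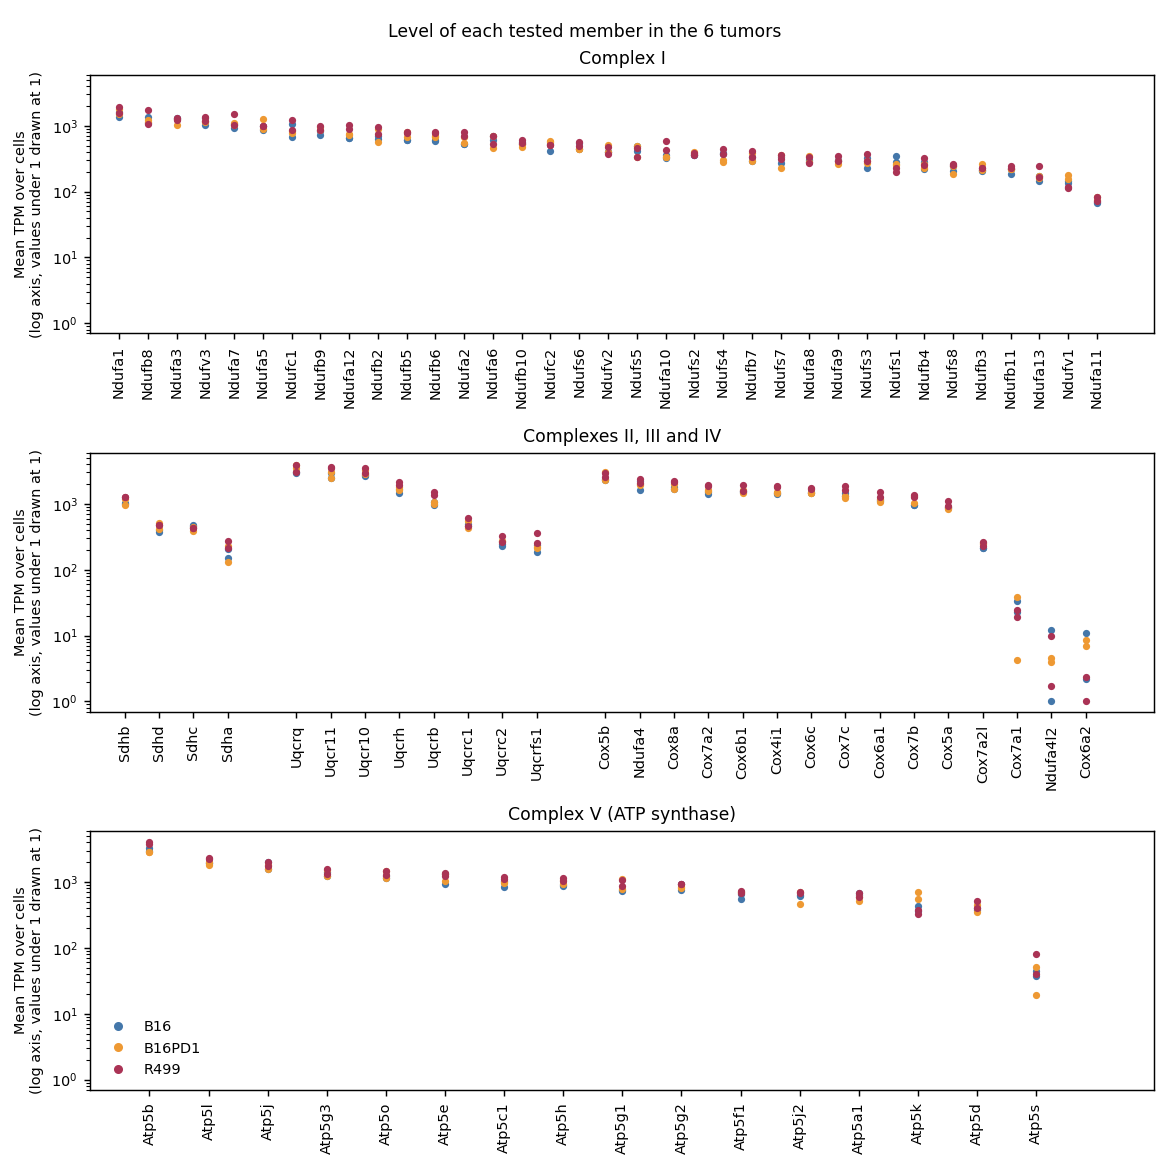
Mean TPM over retained cells (log axis) of each of the 78 tested members, ordered by level within each complex, with one point per tumor colored by condition. Cox7a1, Ndufa4l2, and Cox6a2 of complex IV and Atp5s of complex V lie lowest within their complexes.

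Complex I takes electrons from NADH. Its most abundant nuclear members were accessory subunits. Ndufa1, a small membrane-arm subunit, had mean levels of 1638 and 1375 TPM in the B16 tumors, 1504 and 1781 TPM in B16PD1, and 1942 and 1543 TPM in R499, so that the 3 conditions overlapped. Ndufb8 averaged 1270 TPM and Ndufa3 averaged 1240 TPM over tumors. The 7 core subunits, which carry the flavin and the iron-sulfur clusters, ranged from 140 TPM for Ndufv1 to 426 TPM for Ndufv2, with a median of 297 TPM. The 28 accessory subunits had a median of 580 TPM and ranged from 75.4 TPM for Ndufa11 to Ndufa1 at the top. Detection was most frequent for the accessory subunit Ndufa9, in 95.5% of cells (95% Wilson interval 93.3% to 97.0%), and least frequent for Ndufs5, in 69.6% (65.5% to 73.5%).

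Complex II links the tricarboxylic acid cycle to the chain. Its iron-sulfur subunit Sdhb was detected in 99.2% of cells and averaged 1121 TPM, compared with 444 TPM for the membrane anchor Sdhd, 437 TPM for the other anchor Sdhc, and 199 TPM for the flavoprotein Sdha. Sdha was detected in 92.7% of cells, the least of the 4. Sdha levels were 150 and 205 TPM in B16, 226 and 133 TPM in B16PD1, and 211 and 269 TPM in R499. The 4 subunits occur once each in the assembled complex, and their mRNAs spanned a 5.63-fold range.

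Complex III carries electrons from ubiquinol to cytochrome c. Its small subunits Uqcrq, Uqcr11, and Uqcr10 averaged 3401, 3002, and 2991 TPM, and Uqcrq was the most abundant member of all. Uqcr10 was detected in 98.2% of cells. The catalytic Rieske protein Uqcrfs1 had the lowest level of the complex, 244 TPM, and the lowest share of cells, 88.4%.

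Complex IV reduces oxygen. Cox5b, a nuclear subunit that binds zinc, averaged 2616 TPM and was detected in 98.2% of cells, followed by Ndufa4 with 2041 TPM and Cox8a with 1924 TPM. Cox5b levels were 2346 and 2360 TPM in B16, 3077 and 2336 TPM in B16PD1, and 2992 and 2587 TPM in R499, and both R499 tumors lay above both B16 tumors but not above both B16PD1 tumors. On the scale of mean log2(TPM + 1), Cox5b differed by -0.08 ± 0.23 (SE) between R499 and B16, so that the direction depended on the scale. Cox5b was detected in 100% and 100% of cells in the B16 tumors and in 97.5% and 94.7% in the R499 tumors.

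Complex V makes ATP. Atp5b, the catalytic beta subunit on chr10:128083273-128090391, was the only member detected in all 507 cells and averaged 3311 TPM. Its partner in the F1 hexamer, the alpha subunit Atp5a1, averaged 614 TPM, although the enzyme holds equal numbers of both. Atp5l, a membrane subunit, averaged 2046 TPM, and Atp5j, a coupling factor of the stalk, 1789 TPM. Atp5k, a small membrane subunit with a median annotated transcript of 322 bases, was detected in only 48.3% of cells (95% Wilson interval 44.0% to 52.7%), with a median of 589 TPM in the cells that had it. Atp5s, a coupling factor that is not a core subunit, was detected in 30.6% (26.7% to 34.7%) and averaged 45.3 TPM.

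The members also varied unequally between cells. The coefficient of variation of TPM over the 507 cells was lowest for Atp5c1, the gamma subunit of the F1 shaft (46.8%), Sdhb (48.7%), and Atp5b (54.3%). It was 248% for Atp5k and 389% for Atp5s. These values include the sampling of transcripts, whose depth TPM does not show.

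For most paralog pairs of complex IV, with Cox7a2 and Cox7a2l as the exception, a single gene carried nearly all of the signal. Cox4i1, the regulatory subunit, averaged 1587 TPM and was found in 495 of 507 cells, whereas its paralog Cox4i2 was listed at 0. Cox6b1 (1613 TPM), Cox7b (1149 TPM), and Cox8a were likewise detected in 482, 492, and 491 cells, and Cox6b2, Cox7b2, and Cox8c, known as testis forms, were listed at 0.

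The heart and skeletal muscle forms were rare but present. Cox7a1 was detected in 36 cells (7.10%, 95% Wilson interval 5.17% to 9.67%) with a median of 212 TPM in those cells, and all 36 also expressed its broadly used paralog Cox7a2, which was found in 489 cells at 1649 TPM. Cox6a2 was detected in 18 cells (3.55%, 2.26% to 5.54%), 17 of which had Cox6a1. Cox8b was detected in 3 cells, all with Cox8a. Markers of skeletal muscle summed to between 1.66 and 18.6 TPM over tumors, with 3 of 6 at 0 and Ckm the most frequent at 4.54% of cells; their part in these levels was not tested.

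Ndufa4, which joins complex IV, averaged 2041 TPM in 489 cells, and Ndufa4l2, a paralog known for induction in low oxygen, averaged 5.55 TPM in 26 cells (5.13%, 3.52% to 7.41%). The assembly-related paralog Cox7a2l was found in 436 cells at 237 TPM, which was 3.45 ± 0.41 (SD over 6 tumors) below Cox7a2 on the log2(TPM + 1) scale.

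The c-ring of ATP synthase showed another pattern. Its 3 genes Atp5g1, Atp5g2, and Atp5g3 encode the same mature protein with different import sequences, and all 3 were abundant, with 892, 871, and 1380 TPM and detection in 93.1%, 94.7%, and 98.4% of cells. Atp5g3 was higher than Atp5g1 and than Atp5g2 in 6 of 6 tumors, by 1.19 ± 0.54 and 0.97 ± 0.35 (SD) on the log2(TPM + 1) scale. Atp5g1 and Atp5g2 differed by -0.22 ± 0.54, with Atp5g1 higher in 2 of 6 tumors (adjusted p = 0.344, exact permutation test).

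Differences of mean log2(TPM + 1) within the 12 pairs were compared with an exact sign-flip permutation test over the 6 tumors (two-sided), in which the smallest possible p is 0.03125. Of the 8 pairs with both genes detected, 7 had an adjusted exact p of 0.0341 (Benjamini-Hochberg over the 12 pairs), and the pair Atp5g1 and Atp5g2 was the exception. The 4 pairs with a gene at 0 in every cell are given as a description, since their sign was fixed. The adjustment over the 12 pairs includes them. The sign was hardly open either where the second gene was rare: Cox8b (3 cells), Cox6a2 (18 cells), Ndufa4l2 (26 cells), and Cox7a1 (36 cells). The differences of the 9 pairs of complex IV ranged from 3.45 to 10.38. For the 4 pairs with a gene at 0 and for Cox8a with Cox8b, the size of the difference rests on the added 1 TPM, and the pairs that share a gene are not independent. The size also depends on the added 1 TPM where the second gene was at 0 in most cells. For Cox7a2 with Cox7a1, Ndufa4 with Ndufa4l2, and Cox6a1 with Cox6a2 the differences were 9.52, 10.12, and 9.33. Their ratios of mean TPM were 69.3, 368, and 236.

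**Figure D2:**
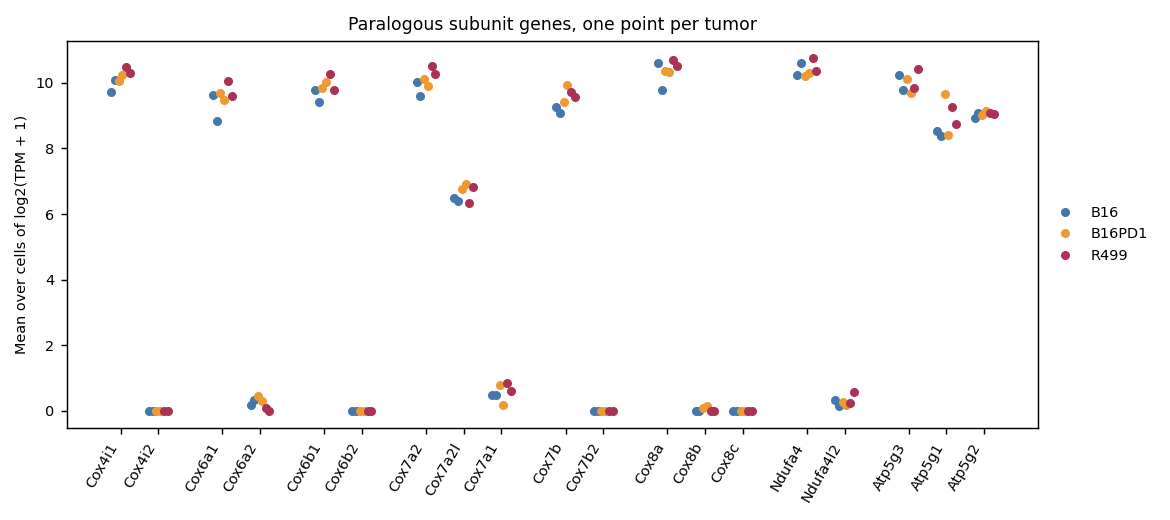
Mean over cells of log2(TPM + 1) for paralogous subunit genes, one point per tumor colored by condition. In the Cox and Ndufa4 families one gene lies near 10 and the alternative form below 1, with Cox7a2l between them, while the 3 c-ring genes lie together at the top.

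Promoter sequences are shown for the 2 pairs with muscle forms for which both RefSeq windows were at hand. In each pair the broadly used gene was detected in nearly every cell and the muscle form in few. The part of the promoter in this difference was not tested. Each sequence is the 250 bases before the RefSeq start site on GRCm38.p6, 5′ to 3′ on the strand of the gene, with CG dinucleotides in capitals. Cox7a2 lies at chr9:79759854-79760103 (minus strand), Cox7a1 at chr7:30183921-30184170 (plus), Cox8a at chr19:7217617-7217866 (minus), and Cox8b at chr7:140900447-140900696 (minus).
Cox7a2: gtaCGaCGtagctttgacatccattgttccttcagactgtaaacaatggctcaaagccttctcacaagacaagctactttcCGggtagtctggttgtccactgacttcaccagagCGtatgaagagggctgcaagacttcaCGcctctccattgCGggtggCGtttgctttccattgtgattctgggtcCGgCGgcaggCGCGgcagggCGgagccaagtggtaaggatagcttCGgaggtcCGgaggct
Cox7a1: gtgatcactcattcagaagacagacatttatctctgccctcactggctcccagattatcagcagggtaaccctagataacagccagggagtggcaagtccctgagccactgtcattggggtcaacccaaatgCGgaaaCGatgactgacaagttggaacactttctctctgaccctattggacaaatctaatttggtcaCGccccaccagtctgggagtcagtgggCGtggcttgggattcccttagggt
Cox8a: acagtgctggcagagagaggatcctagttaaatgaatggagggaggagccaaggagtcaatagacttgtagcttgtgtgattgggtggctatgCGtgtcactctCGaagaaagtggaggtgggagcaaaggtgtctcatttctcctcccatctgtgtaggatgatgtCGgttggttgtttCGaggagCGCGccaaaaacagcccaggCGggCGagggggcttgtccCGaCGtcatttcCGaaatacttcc
Cox8b: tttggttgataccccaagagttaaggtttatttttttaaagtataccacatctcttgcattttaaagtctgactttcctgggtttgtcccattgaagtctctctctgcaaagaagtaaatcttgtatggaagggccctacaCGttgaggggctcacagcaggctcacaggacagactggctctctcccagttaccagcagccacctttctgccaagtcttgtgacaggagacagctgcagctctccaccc

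In these 2 pairs the broadly used genes held more CG dinucleotides, 14 in Cox7a2 and 11 in Cox8a, compared with 4 in Cox7a1 and 1 in Cox8b. In windows that also include the 50 bases after the start, the numbers were 20, 19, 7, and 2, and the median over the 27025 genes with a RefSeq window was 8. Other pairs went both ways in these longer windows. Cox6b1 held 17 and Cox6b2 10, but Cox7b held 5 and Cox7b2, at 0 in every cell, held 10. Atp5s, detected in 30.6% of cells, held 32. A link between CG number and use was not tested. The median was 19 for the 65 tested members with a window and 23 both for the 8722 tested genes and for the 703 other genes found in at least 80% of cells, so that Cox8a lay at the members' median and Cox7a2 just above it.

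Windows of 300 bases were available for 65 of the 78 tested members. These were searched on both strands for GCATGCGC, a half-site of NRF1, for CCGGAAGT, an ETS site of the kind bound by GABPA, and for AAGATGGC, a YY1 site. NRF1 and GABPA are known regulators of respiratory genes. The NRF1 letters were in 10 of 65 members (15.4%), compared with 3.05% of all 27025 genes and 7.40% of 703 other genes detected in at least 80% of cells. The YY1 letters were also in 10 members (15.4%), compared with 3.19% and 7.54%, and the ETS letters were in 5 (7.69%), compared with 4.31% and 12.1%. Among the 53 members that were themselves found in at least 80% of cells, the shares were 15.1% for NRF1, 11.3% for YY1, and 9.43% for ETS. A match is a description and shows no binding. Cox6a1 (chr5:115348959-115349208, minus strand) is shown as an example with the NRF1 letters, which overlap their own reverse complement there, in capitals.
Cox6a1: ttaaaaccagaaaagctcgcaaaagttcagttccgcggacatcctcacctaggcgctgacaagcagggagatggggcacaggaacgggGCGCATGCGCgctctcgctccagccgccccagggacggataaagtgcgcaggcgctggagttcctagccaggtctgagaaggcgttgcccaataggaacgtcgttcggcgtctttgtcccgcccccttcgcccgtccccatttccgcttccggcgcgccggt

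Conditions were compared on the tumor means of log2(TPM + 1) over cells, with limma fitted to all 11264 genes and 6 tumors. No member passed an adjusted p of 0.05 in any of the 3 contrasts. The 3 contrasts share tumors and are not independent of each other. Over all genes, 0% passed in B16PD1 minus B16, 0.0621% in R499 minus B16, and 0.071% in R499 minus B16PD1. Fewer cells expressing a gene and a lower level per cell are not separated by these means.

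In R499 minus B16 the members leaned to one side. Of 78, 68 had a difference above 0, compared with 35.8% of all genes tested, and the median difference was 0.30 for members and -0.07 for all genes. The 64 members detected in at least 80% of cells had a median of 0.31, and the 878 other genes that were as widely detected had a median of -0.09. For the 310 of those other genes with transcripts shorter than 1000 bases the median was -0.03. Without the limit of detection, the 59 members with transcripts under 1000 bases had a median of 0.26. The 1974 other genes of such length had a median of -0.03. These limits of detection and length were chosen after the values were seen. The groups did not overlap, with R499 higher, for 30 members (38.5%), compared with 11.6% of all genes, and with R499 lower for 6 members (7.69%), compared with 30.1%. At an unadjusted p under 0.05 there were 8 members (10.3%), near the 10.5% of all genes. The median was 0.13 without B16008, in which the members were low as a set, with a median deviation of -0.33 from their mean over tumors, and 0.51 without B16007. Beside this, R499015 had the fewest genes detected per cell, and the members' median was 0.51 once genes detected per cell entered the fit.

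By complex, the median difference of R499 minus B16 was 0.40 for the 8 members of complex III, all of which were above 0, 0.27 for complex I, 0.30 for complex II, 0.26 for complex IV, and 0.23 for complex V. Within complex I the 28 accessory subunits had a median of 0.30 with 25 above 0, and the 7 core subunits 0.08 with 4 above 0. The difference between core and accessory subunits was not tested.

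Uqcrb, a small subunit of complex III on chr13:66900617-66905378, had the smallest p of all members in R499 minus B16. Its mean log2(TPM + 1) was 8.84 and 7.89 for B16, 8.93 and 8.79 for B16PD1, and 9.92 and 9.79 for R499. Both R499 tumors lay above all 4 others. The difference from B16 was 1.49 ± 0.30 (SE, adjusted p = 0.0907, limma), and from B16PD1 it was 0.998 ± 0.30 (adjusted p = 0.314). In TPM the means were 1085 and 946 in B16 and 1534 and 1351 in R499, and the share of cells was 89.0% and 81.4% in B16 and 95.1% and 96.0% in R499. The adjusted p was between 0.00799 and 0.0434 in 4 of 12 other settings and 0.0194 without B16007. With the log2 of each tumor's mean TPM the difference was 0.51 (adjusted p = 0.535), so that both the call and the size depended on the processing.

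Ndufa12, an accessory subunit of complex I on chr10:94198720-94221443, came next. Its mean log2(TPM + 1) was 7.80 and 7.58 for B16, 8.22 and 8.46 for B16PD1, and 9.18 and 8.80 for R499, and the 3 conditions did not overlap. R499 minus B16 was 1.30 ± 0.28 (SE, adjusted p = 0.0995, limma), which passed when only cells with more than 2000 genes were used (1.40, adjusted p = 0.0157) and when each cell was centered on its mean (1.40, adjusted p = 0.0245). With the log2 of each tumor's mean TPM it was 0.55 (adjusted p = 0.530). With more than 2000 genes per cell, Ndufc1, another accessory subunit, also passed (1.66, adjusted p = 0.0318).

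Atp5h, subunit d of the ATP synthase stalk, was 8.38 and 8.54 for B16, 9.14 and 9.16 for B16PD1, and 9.21 and 9.23 for R499. Both B16 tumors were below the other 4, and the differences from B16 were 0.69 ± 0.25 for B16PD1 and 0.76 ± 0.25 for R499 (SE, adjusted p = 0.989 and 0.349, limma). With the log2 of mean TPM they were 0.19 and 0.31.

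Ndufs1, the large iron-sulfur subunit at the NADH end of complex I, had a difference in the other direction and was chosen for naming after its values were seen, as was Ndufv1. It was 6.92 and 6.80 for B16, 6.89 and 6.55 for B16PD1, and 6.19 and 5.78 for R499, and both R499 tumors were below all others. R499 minus B16 was -0.88 ± 0.32 (SE, adjusted p = 0.378, limma), and -0.54 with the log2 of mean TPM. The flavin-carrying core subunit Ndufv1 also had both R499 tumors below both B16 tumors (-0.65).

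In B16PD1 minus B16, 62 of 78 members had a difference above 0, compared with 53.0% of all genes, and the median was 0.23 for members and 0.01 for all genes. The groups did not overlap with B16PD1 higher for 22 members (28.2%), compared with 17.9% of all genes, and with B16PD1 lower for 2 members, Ndufb4 and Atp5a1 (2.56%), compared with 15.4%. At an unadjusted p under 0.05 there were 5 members (6.41%), compared with 4.69% of all genes. The median was 0.03 without B16008 and 0.44 without B16007, so that its size rested on the low values of B16008. It was 0.059 with the log2 of mean TPM, with 50 of 78 members above 0, and 0.10 with genes detected as a covariate, with 49 above 0. After Atp5h, the smallest p belonged to Ndufs3, a core subunit near the quinone site, with 6.03 and 6.48 for B16, 6.81 and 7.27 for B16PD1, and 7.03 and 6.61 for R499. Its difference was 0.78 ± 0.33 and that of Ndufa12 was 0.65 ± 0.28 (SE, adjusted p = 0.989 for both, limma). With the log2 of mean TPM these were 0.055 and 0.18, and the Ndufs3 means of 228 and 327 TPM in the B16 tumors enclosed those of 272 and 297 TPM in the B16PD1 tumors.

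In R499 minus B16PD1, 45 of 78 members were above 0, compared with 32.8% of all genes, with a median of 0.06 for members and -0.09 for all genes. The groups did not overlap with R499 higher for 15 members (19.2%), compared with 10.2% of all genes, and with R499 lower for 6 members (7.69%), compared with 31.3%. At an unadjusted p under 0.05 there were 9 members (11.5%), compared with 10.2% of all genes. The smallest p was that of the muscle form Cox6a2, which was 0.44 and 0.30 in B16PD1 and 0.09 and 0.00 in R499, a difference of -0.32 ± 0.10 (SE, adjusted p = 0.314, limma). The 18 cells with Cox6a2 are counted over all 6 tumors, B16 included, so that this difference rests on only part of them. Ndufc2, an accessory subunit of the membrane arm, was 8.13 and 7.82 in B16PD1, 7.17 and 7.12 in R499, and 7.64 and 7.20 in B16, and its difference was -0.83 ± 0.30 (SE, adjusted p = 0.368, limma). With the log2 of mean TPM the difference was -0.16 for Ndufc2, 0.49 for Uqcrb, and -2.26 for Cox6a2. The sign of the members' median turned with 1 tumor or setting, to -0.0034 without B16PD1002 and -0.012 with cells under 5% mt- TPM, while it was 0.18 with the log2 of mean TPM.

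**Figure D3:**
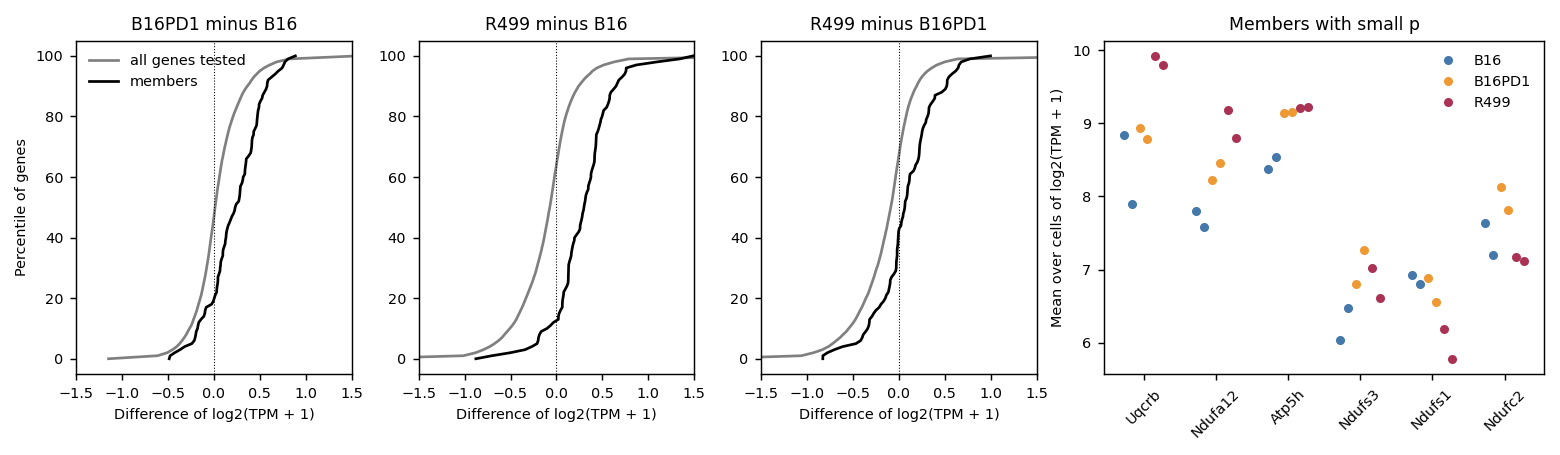
The 3 panels on the left show, for each contrast, the percentile of genes (vertical) against the difference of mean log2(TPM + 1) (horizontal) for the 78 tested members (black) and all 11264 genes tested (grey), and the panel on the right shows 6 members with one point per tumor. The black line lies to the right of the grey line most clearly in R499 minus B16, with medians of 0.30 and -0.07, and Uqcrb and Ndufa12 are highest in both R499 tumors.

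Summed TPM, which is led by the abundant members, gave the same order of conditions. It was 66829 and 65513 for B16, 72187 and 66476 for B16PD1, and 81891 and 75153 for R499. Both R499 tumors were above the other 4, and the ratio of the R499 mean to the B16 mean was 1.19, while B16PD1 overlapped with B16. Without the 4 members with the highest levels (Uqcrq, Atp5b, Uqcr11, and Uqcr10) the ratio was 1.18. Both R499 tumors also stayed above the other 4 with no filter on cells, with stricter filters, and with TPM rescaled without mt- genes. No p is given for a sum over members, and 2 against 2 tumors could not reach 0.05 in an exact test.

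By complex, the ratio of R499 to B16 in summed TPM was 1.14 for complex I, 1.17 for complex II, 1.25 for complex III, 1.22 for complex IV, and 1.16 for complex V. In complex IV the sums were 16469 and 16746 TPM in B16, 17763 and 16919 TPM in B16PD1, and 21091 and 19266 TPM in R499. In complex III they were 12453 and 11424 TPM in B16, 14042 and 12303 TPM in B16PD1, and 15770 and 14097 TPM in R499. Both R499 tumors were the highest in complexes I, III, IV, and V, by a narrow margin in complexes I and III, and in complex II R499 overlapped with B16PD1. Atp5b alone was 3302 and 2937 TPM in B16, 2895 and 2843 TPM in B16PD1, and 4111 and 3778 TPM in R499, and it was 0.39 ± 0.19 (SE) above B16 on the log2 scale (adjusted p = 0.489, limma).

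**Figure D4:**
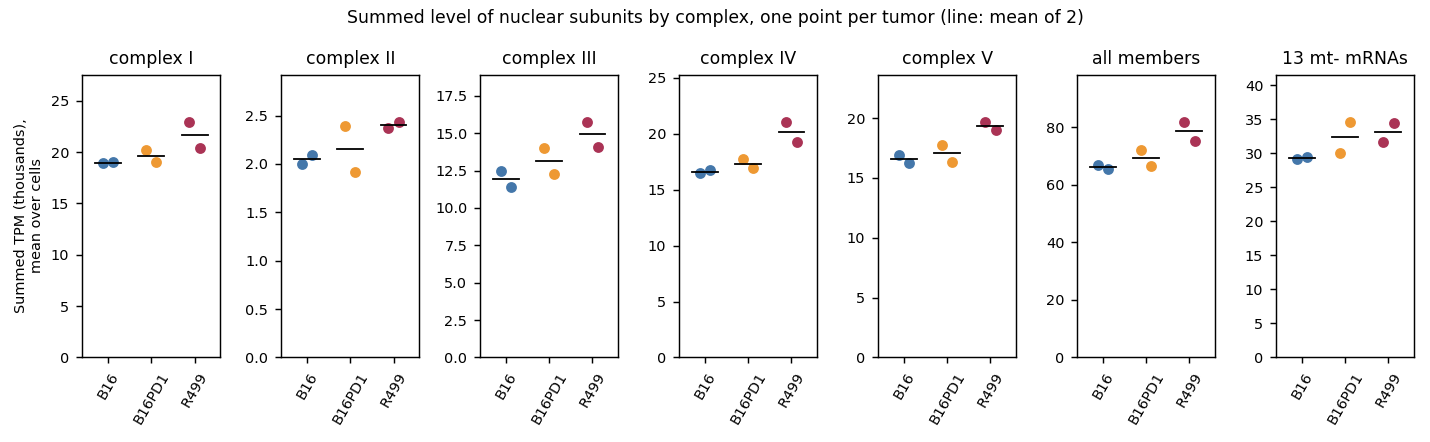
Summed TPM as the mean over cells (axis in units of 1000 TPM) of the nuclear subunits of each complex, of all 84 members, and of the 13 mt- mRNAs, with one point per tumor and a line at the mean of 2 tumors. Axes start at 0, and the R499 points lie above the other 4 for all members together but not for the mt- mRNAs. Only retained cells are shown, in which mt- TPM was limited by the filter.

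The mitochondrial genome encodes 13 subunits of complexes I, III, IV, and V, led here by mt-Atp6 with 7429 TPM. Their sum was 29167 and 29409 TPM in B16, 30110 and 34648 TPM in B16PD1, and 31695 and 34497 TPM in R499. The nuclear members exceeded them by a ratio of 2.29 and 2.23 for B16, 2.40 and 1.92 for B16PD1, and 2.58 and 2.18 for R499, and the 3 conditions overlapped. These sums and ratios cover retained cells only. The limit on mt- TPM lowers the mt- sums, and it took more cells from R499 than from the other conditions. Its effect on the ratios was not tested. With more than 1000 genes per cell and no such limit, the median mt- sum of a cell was 28131.6 and 28309.8 TPM in B16. It was 27888 and 34248.5 TPM in B16PD1 and 34546.9 and 33223.7 TPM in R499, which overlapped. The ratio differed between complexes. The nuclear sum was between 3.29 and 4.67 times the mt- sum in complex III, where the mt- partner is mt-Cytb alone, between 2.36 and 3.48 in complex I, between 1.66 and 2.20 in complex V, and between 1.30 and 1.76 in complex IV. Reads of mt-Atp8 and mt-Nd4l, which overlap neighboring genes, can be split between them in counting. The mt-Nd4l level was 0.83 ± 0.34 (SE) lower in R499 than in B16 (adjusted p = 0.401, limma).

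Between cells of a tumor, the mean log2(TPM + 1) of the members and that of the 13 mt- mRNAs had a Pearson r between 0.39 and 0.61 over the 6 tumors. Both measures also followed the number of genes detected in the cell, with r between 0.67 and 0.84 for the members and between 0.57 and 0.74 for the mt- mRNAs. After the number of genes detected was removed by a linear fit within each tumor, r was between -0.11 and 0.13. Cells of a tumor share a library preparation, so these values are descriptions of 75 to 91 cells each. For the sums of TPM, which depend less on detection, r of the log2 sums was between -0.21 and 0.12. Nuclear and mt- TPM share the fixed total of a cell. With TPM rescaled without mt- genes, r of the log2 sums was between -0.12 and 0.24. On the same rescaled values, r of the mean levels after removal of genes detected was between -0.09 and 0.16. Taken complex by complex, the nuclear subunits and their own mt- partners had r between -0.19 and 0.17 after removal.

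Correlations among the nuclear complexes were higher than those with mt- partners for complexes I, III, IV, and V. The mt- partners of these complexes were only 7, 1, 3, and 2 genes. Among them mt-Atp8 was detected in 32.1% of cells, mt-Nd6 in 45.4%, and mt-Nd3 in 54.6%. The part of gene number and detection in this contrast was not tested. After the number of genes detected was removed, r over cells was between 0.47 and 0.60 for complex I with complex IV, between 0.36 and 0.66 for complex I with complex V, and between 0.35 and 0.60 for complex I with complex III over the 6 tumors. It was between 0.24 and 0.54 for complex III with complex IV, between 0.22 and 0.51 for complex III with complex V, and between 0.36 and 0.53 for complex IV with complex V. Values with complex II, which is a mean of only 4 genes, ranged from -0.09 to 0.49. Single genes were only weakly tied: over the 64 members detected in at least 80% of cells, the median r of 516 pairs within a complex was 0.08 and that of 1500 pairs between complexes was 0.07. In sparse single-cell values such small correlations are given as a description only.

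Pooled over tumors, the cells left out for 10% or more mt- TPM did not have a lower median nuclear level. Among cells with more than 1000 genes, the mt- limit took R499015 from 98 to 81 cells and R499016 from 96 to 75. In B16 it took 96 to 91 and 95 to 86, and in B16PD1 95 to 86 and 98 to 88. R499 tumors also had the highest summed levels, and these cells were not compared within tumors. The 71 such cells with more than 1000 genes had a median summed member level of 75433 TPM, and 96504 TPM once mt- genes were left out of the total, compared with 70271 and 72395 TPM in the 507 retained cells. With these cells included, r of members and mt- mRNAs after removal of genes detected was between -0.02 and 0.27.

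**Figure D5:**
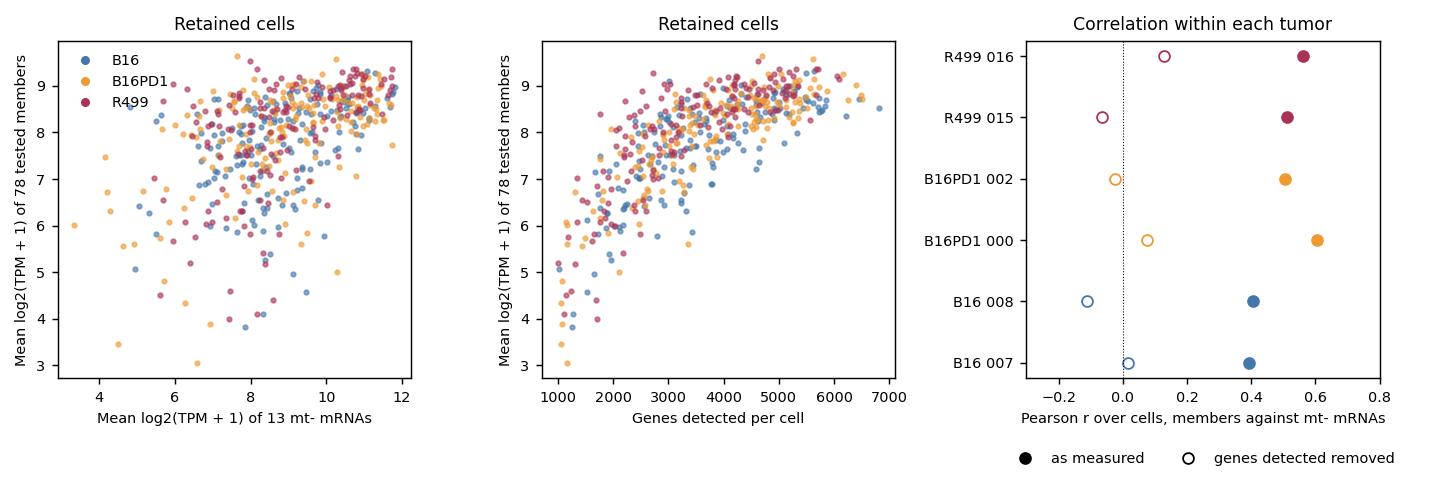
Each point in the left and middle panels is one of the 507 retained cells, colored by condition, with the mean log2(TPM + 1) of the 78 tested members against that of the 13 mt- mRNAs (left) or against the number of genes detected (middle), and the right panel gives Pearson r per tumor as measured (filled) and after removal of genes detected (open). The filled points lie between 0.39 and 0.61 and the open points between -0.11 and 0.13.

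Genes around the complexes were described from lists by function. Of 45 tested assembly factors, 20 were above 0 in R499 minus B16 with a median of -0.06, beside 0.30 for the members. Pet100, which serves complex IV assembly, had the smallest p (1.15 ± 0.30 SE, adjusted p = 0.218, limma), and Uqcc2, for complex III, was the most abundant at 596 TPM. Of 16 tested regulators of mitochondrial genes, 6 were above 0, with a median of -0.26. Ppargc1a, a coactivator of mitochondrial biogenesis, was 5.04 and 4.28 for B16, 3.96 and 3.98 for B16PD1, and 3.85 and 3.65 for R499, so that both R499 tumors were below the rest, with a difference from B16 of -0.91 ± 0.35 (SE, adjusted p = 0.380, limma). Slirp, which binds mitochondrial mRNA, was the most abundant regulator at 1229 TPM. Of 6 tested further subunits and carriers all were above 0, with a median of 0.34: the ATPase inhibitor Atpif1 had a difference of 0.67 ± 0.31 (SE, adjusted p = 0.465, limma), and the ATP synthase subunit gene Usmg5 was the most abundant at 1877 TPM.

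Genes of neighboring pathways were on both sides. Of 14 tested tricarboxylic acid cycle genes, 6 were above 0 in R499 minus B16, with a median of -0.16, a most abundant gene Mdh2 at 765 TPM, and the smallest p for Idh3g, a subunit of isocitrate dehydrogenase (0.85 ± 0.33 SE, adjusted p = 0.380, limma). Of 14 tested glycolysis genes, 12 were above 0, with a median of 0.08. Gapdh led them with 13519 TPM, and Hk2, which phosphorylates glucose, had mean log2(TPM + 1) of 5.41 and 5.09 in the B16 tumors and 3.86 and 4.64 in the R499 tumors (SE of the difference 0.36, adjusted p = 0.370, limma). Of the 13 mt- mRNAs, 10 were above 0, with a median of 0.15. At an adjusted p of 0.05 (limma), no gene of these lists was called for R499 minus B16. At an unadjusted p under 0.05 there were 5 of 45 assembly factors, 4 of 16 regulators, and 1 gene of each other list, beside 10.5% of all genes.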

How the data were processed

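Single-cell RNA was measured in 602 cells of 6 tumors. The authors aligned reads with STAR and quantified genes with RSEM on mm10 (versions not given in the sources used here), and the deposited values are TPM per gene and cell, which sum to 1e+06 in a cell and hold no read depth. All columns were used, and 0 were left out. Cells with more than 1000 genes and under 10% mt- TPM, and genes in more than 5 of them, were kept. The mean of log2(TPM + 1) over the cells of a tumor was the unit of comparison, so that tumors, 2 per condition, and not cells were the replicates. The limma p-values use a spread between tumors estimated over all 6 tumors and drawn toward a trend over all genes. A fold of mean log2(TPM + 1) understates changes of low genes.

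limma 3.58.1 (R 4.3.3, eBayes with trend) was fitted to all genes with no covariate, with Benjamini-Hochberg adjustment at 0.05. Paralogs were compared by an exact sign-flip permutation test (scipy 1.17.1). Wilson 95% intervals and the limits for 0 cells (3 counts) cover counting error only, and reads of near-identical copies can be split between genes. The scripts were tested on simulated data. Gene positions are from GENCODE M21 (GRCm38) and promoters from RefSeq GRCm38.p6, matched by symbol.

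The members and lists were chosen with earlier results of these data known. Genes named were the 3 most abundant members of each complex, the 3 members with the smallest p of each contrast and any that passed, all paralog pairs, the members of each complex with the lowest and highest share of cells, complex II, and from each other list the most abundant gene and the one with the smallest p in R499 minus B16. Other genes named were chosen after their values were seen. Alternatives were pseudocounts of 0.1 and 10, the log2 of mean TPM, other cell and gene filters, rescaling without mt- genes, centering of cells, genes detected as a covariate, no trend, and leaving out each tumor.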

Additional observations from a re-analysis of the deposited data

Results flagged for a closer look

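Among 7 pseudogene copies of the subunit genes, which were left out of the members, 2 were detected above the limit of 0.592% that 0 of 507 cells allows. Atp5l2-ps was found in 31 cells (6.11%), of which 11 were B16, 15 were B16PD1, and 5 were R499. Atp5l-ps1 was found in 13 cells (2.56%), of which 5 were B16, 6 were B16PD1, and 2 were R499. Reads of these copies and of Atp5l cannot be told apart with certainty, and the other 5 copies were listed at 0.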

How the results depend on the processing

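No paired analysis was possible because the columns carry tumor numbers and not the replicate numbers of the labels. No member was called in the fit as reported, so that no called difference between conditions could reverse. The number of members past an adjusted p of 0.05 (limma) in R499 minus B16, 0 as reported, was 1 with genes in at least 10% of cells, 1 with no filter on cells, 3 with more than 2000 genes per cell, 2 with cells centered on their mean, and 0 to 1 when a tumor was left out (1 without B16007). It stayed at 0 in the other 2 contrasts under all alternatives run. The members' median difference was 0.10 in B16PD1 minus B16, 0.51 in R499 minus B16, and 0.42 in R499 minus B16PD1 with genes detected as a covariate. When a tumor was left out it ranged from 0.026 to 0.443 in B16PD1 minus B16, from 0.13 to 0.51 in R499 minus B16, and from -0.0034 to 0.19 in R499 minus B16PD1. The differences in summed TPM ranged from 304.4 to 6016, from 8982 to 15720, and from 5822 to 12559. In R499 minus B16, the count of members at an unadjusted p under 0.05 reached 30 with no filter on cells (38.5%, beside 12.1% of all genes), and was 6 of 80 with no filter on genes (7.50%, beside 9.30%). With 5 tumors 0 paralog pairs passed, since the smallest exact p is then above 0.05. The median r of members and mt- mRNAs was 0.37 with more than 2000 genes per cell, and after removal of genes detected it was 0.13 with no filter on cells. Centering moved the median of all genes from -0.07 to 0.03 in R499 minus B16 and from -0.09 to 0.05 in R499 minus B16PD1. The cause of these changes was not tested. TPM hold no read depth, which limits what an absent transcript shows.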
